A study of Homo sapiens with 4 samples.

Results

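The accessible chromatin of the TBX2 and TBX3 loci was described in SK-N-BE(2)C, an established neuroblastoma cell line with amplified MYCN. A peak, that is a region where fragments pile up above their surroundings, was taken as a member if it overlapped the 3 kb on either side of any transcript start of the gene (promoter peak) or lay elsewhere within 100 kb of the gene (distal peak). These rules took 38 of the 90292 peaks in both lists. TBX2 had 15 control and 12 sgSNHG1 peaks, and TBX3 had 4 control and 7 sgSNHG1 peaks. Sites are numbered along the chromosome, and overlapping peaks of the 2 lists share a number.

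TBX2 and TBX3 are paralogous transcription factors of the T-box family that act mainly as repressors and bind DNA through a conserved T-box domain. Each has another T-box gene of the same subfamily close by, TBX4 beside TBX2 and TBX5 beside TBX3. TBX2 belongs to the core regulatory circuitry (CRC) of MYCN-amplified neuroblastoma, a set of transcription factors that occupy their own enhancers and those of each other, while TBX3 is best known for limb, breast and heart development and for keeping stem cells undifferentiated.

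In ATAC-seq a transposase cuts open chromatin and places adapters there. The control cells carried a non-targeting guide RNA and are labelled wildtype, and the sgSNHG1 cells carried guides against SNHG1, a long non-coding RNA gene, and are labelled SNHG1 knockout. The paper describes Cas9, puromycin selection, sorting as single cells and expansion as clones for the sgSNHG1 cells. It calls the control a clone too, with no separate account of how that clone was selected. A group thus stands for clonal cells, and a difference of clones cannot be told apart from one of SNHG1. The 2 replicates of a group were merged before peak calling, and each value is that of 1 pooled list with no replicate spread and no test between the groups. The lists hold no RNA level, so the depletion of SNHG1 was not checked here. A lower signal in a pool can mean fewer cells with the site open or less opening per cell, and these cannot be told apart.

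In all, 47610 peaks were called in control and 42682 in sgSNHG1, the latter covering 0.670 times the control length. The narrowest control peak had 119 bp and the narrowest sgSNHG1 peak 92 bp. Of 9 adrenergic neuroblastoma markers, 8 had a promoter peak in both lists, TH (tyrosine hydroxylase) being without one. So had 6 of 7 mesenchymal, 2 of 2 epithelial and 0 of 2 blood cell markers. Taken list by list, 69.7% of the 19970 protein-coding genes carried such a peak for control and 65.6% for sgSNHG1. The marker counts were not tested against these shares and are no measure of cell identity.

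The sequences that carry the results are given first, each as the 201 bases around a summit on GRCh38. TBX2 site 5 is the strongest TBX2 peak, TBX2 sites 11 and 12 are the pairs with the lowest and the highest ratio of sgSNHG1 to control, and TBX3 site 2 is the strongest peak that a single list held. The first 3 are centred on the control summit and TBX3 site 2 on the sgSNHG1 summit. Capitals mark matches on either strand to the E-box form CATCTG, to the E-box form CAGCTG, to the GATA letters AGATAA and to a CTCF core of 11 letters. None of the 4 windows overlaps an annotated UTR.
TBX2 site 5, chr17:61325756-61325956, plus strand: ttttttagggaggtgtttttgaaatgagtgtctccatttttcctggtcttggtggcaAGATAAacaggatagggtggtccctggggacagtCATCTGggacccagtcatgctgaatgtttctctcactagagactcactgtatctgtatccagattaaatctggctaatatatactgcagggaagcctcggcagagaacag
TBX2 site 11, chr17:61412705-61412905, plus strand: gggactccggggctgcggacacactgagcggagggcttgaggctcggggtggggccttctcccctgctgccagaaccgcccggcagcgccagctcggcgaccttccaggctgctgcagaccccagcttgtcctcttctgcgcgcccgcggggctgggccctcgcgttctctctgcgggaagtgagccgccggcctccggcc
TBX2 site 12, chr17:61416871-61417071, plus strand: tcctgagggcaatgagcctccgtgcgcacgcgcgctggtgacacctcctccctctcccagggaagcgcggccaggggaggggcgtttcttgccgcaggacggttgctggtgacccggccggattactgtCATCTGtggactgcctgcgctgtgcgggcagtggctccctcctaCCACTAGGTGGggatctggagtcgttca
TBX3 site 2, chr12:114666869-114667069, plus strand: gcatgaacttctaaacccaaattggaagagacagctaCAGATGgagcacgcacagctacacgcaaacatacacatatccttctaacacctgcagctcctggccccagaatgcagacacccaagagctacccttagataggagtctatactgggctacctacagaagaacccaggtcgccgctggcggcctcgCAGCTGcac

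No motif of those listed was found in the window of TBX2 site 11. TBX2 site 5 held a GATA and an E-box match, and TBX2 site 12 an E-box and a CTCF match. The window of TBX3 site 2 held an E-box match on either side of the summit. The match CAGATG lies outside the called peak and the match CAGCTG within it. A match is a run of letters and was not tested for binding.

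The TBX2 promoter held a called peak in both lists. It was shorter and split in sgSNHG1, while its height differed by less than the counting error. TBX2 (ENSG00000121068.14; chr17:61399843-61409466, plus strand) has 4 annotated transcripts with 4 starts. Its highest control promoter peak, site 10, spanned chr17:61399557-61400012 with a summit at -192 bp from the gene start (negative distances lie upstream). It had a fold enrichment of 4.33, the ratio of the summit pileup to its local background with 1 added to each, from a pileup of 43 fragments. In sgSNHG1 the same stretch held a pair of shorter peaks. The stronger spanned chr17:61399628-61399750 and reached 3.82 from 29 fragments, and the other spanned chr17:61399849-61399951 and reached 3.56 from 27 fragments. The summit of the second lay at 76 bp from the gene start, in a UTR of TBX2. A single control peak of 456 bp was thus met by peaks of 123 and 103 bp. Over all promoter peaks of protein-coding genes, 6.34% of the control ones met at least 2 sgSNHG1 peaks. The log2 ratio of the stronger sgSNHG1 peak over control was -0.18 for fold enrichment, with a counting error of 0.34, so that a difference in height was not detectable at this depth. The scaled pileup, which is the pileup divided by the genome background of its list, gave -0.21.

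The other control promoter peak, site 9 (chr17:61397310-61397523, summit at -2349 bp), met no sgSNHG1 peak. It had a fold enrichment of 3.00, the lowest of the 15 control peaks at TBX2, and a pileup of 33. Over all control promoter peaks 22.0% met no sgSNHG1 peak. Site 9 lies in introns of the antisense genes TBX2-AS1 and ENSG00000267131 and in an exon of ENSG00000289926, and it is within 3 kb of their starts too. The promoter peaks of TBX2 can therefore not be given to TBX2 alone. Both sgSNHG1 promoter peaks met a control peak, and 10.3% of all sgSNHG1 promoter peaks did not.

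**Figure D1:**
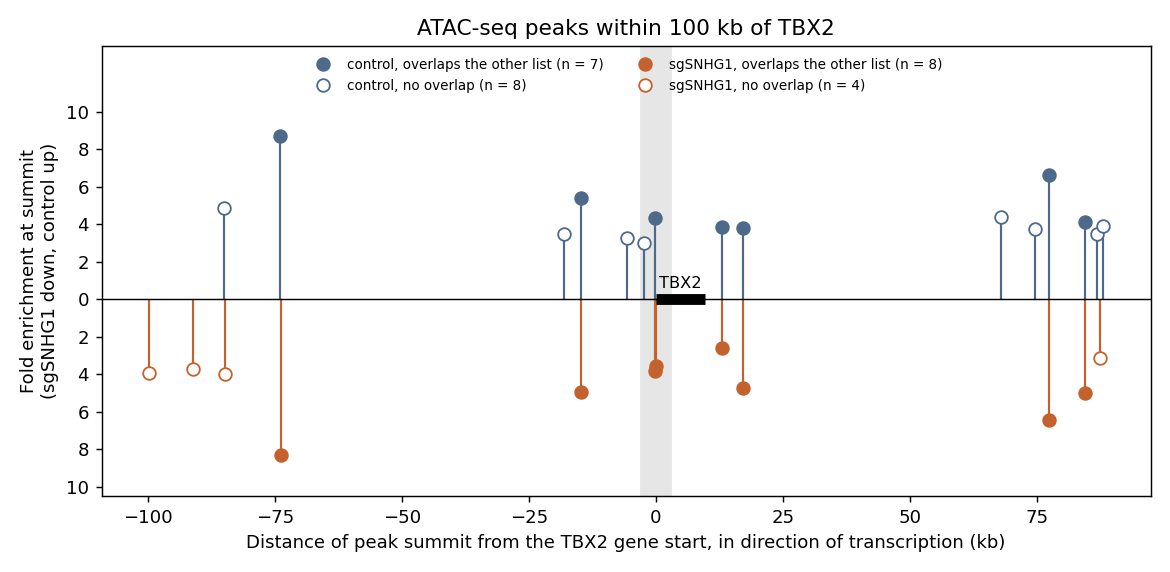
Peaks within 100 kb of TBX2, with the distance of the summit from the gene start in kb on the x axis and fold enrichment on the y axis (control up, sgSNHG1 down). Filled points overlap a peak of the other list and open points do not, the grey band is 3 kb on either side of the gene start and the black bar is the gene. The site at -73987 bp is highest in both lists, and 8 control and 4 sgSNHG1 points are open.

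The distal sites of TBX2 lay in 3 stretches, in BCAS3 upstream, around the gene, and in and behind TBX4 downstream. Site 5, in an intron of BCAS3 with a control summit at -73987 bp, was the highest TBX2 peak in both lists. It reached 8.68 in control and 8.31 in sgSNHG1 in fold enrichment, from pileups of 59 and 38. The log2 ratio was -0.06 with a counting error of 0.29. Site 15 was next, in an intron of TBX4 and within 3 kb of a TBX4 start, with 6.60 in control and 6.43 in sgSNHG1. Its log2 ratio was -0.04 with an error of 0.31. Site 7, in introns of BCAS3 and ENSG00000267131 with a control summit at -14758 bp, had 5.42 and 4.95, and its log2 ratio of -0.13 had an error of 0.30. These were the 3 highest distal sites in control, and each ratio was smaller than its counting error. In sgSNHG1 site 16 (4.99) came before site 7.

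Site 11 had the lowest ratio of the 7 pairs and site 12 the highest, and they lie next to each other behind the gene. Site 11 has its summit in an exon of the lncRNA gene LINC02875 and went from 3.87 (pileup 50) to 2.59 (pileup 23). The log2 ratio was -0.58 with a counting error of 0.35, within 2 errors. On the scaled pileup it was -0.76, beyond 2 errors, the only one of the 7 TBX2 pairs to be so. The share of all pairs beyond 2 errors was not counted, and the error holds no spread between replicates. The control peak was 846 bp wide and the sgSNHG1 peak 98 bp, and they shared 21 bp at the downstream edge of the control peak. The sgSNHG1 summit lay 106 bp from the control summit and outside the control peak. The pileups of 50 and 23 were thus read at different places. Site 12, intergenic, went from 3.77 (pileup 37) to 4.72 (pileup 32), and its log2 ratio was 0.32 (counting error 0.34). Site 16, in a UTR of TBX4, also had a positive ratio of 0.28 with an error of 0.36.

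Over the 7 TBX2 pairs the median log2 ratio was -0.06, beside -0.05 over all 31663 pairs. Of the 7, 5 were lower in sgSNHG1, against 55.6% of all pairs. A ratio of -0.5 or lower was found at 1 of 7, against 9.06% of all pairs, and a ratio of 0.5 or higher at 0 of 7, against 5.37%. None of the 7 ratios of fold enrichment exceeded 2 counting errors. The promoter pair (-0.18) and the 6 distal pairs (median -0.05) thus differed by less than the error of the promoter pair.

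On the scaled pileup 6 of 7 TBX2 pairs were lower, with a median log2 ratio of -0.28, against 50.9% of all pairs. The local background, divided by the genome background of its list, was lower in 7 of 7 pairs, against 58.4% of all pairs, with a median log2 ratio of -0.32. Of the 193 pairs within 5 Mb of TBX2, 66.8% were lower, with a median of -0.06. Fold enrichment divides by this background, and the median ratio was thus further from 0 in scaled pileup than in fold enrichment. The part of the local background in the called peaks was not tested.

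TBX2 peaks stood on a high local background, most of all in control. The median scaled background at the 15 control peaks was 3.86, against 1.57 at all control peaks and 2.17 at the 286 control peaks within 5 Mb. At the 12 sgSNHG1 peaks it was 2.53, against 1.59 at all sgSNHG1 peaks and 2.23 at the 262 within 5 Mb. The medians of 3.86 and 2.53 are over different sets of peaks. Over the 7 pairs the median log2 ratio of the scaled background was -0.32.

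**Figure D2:**
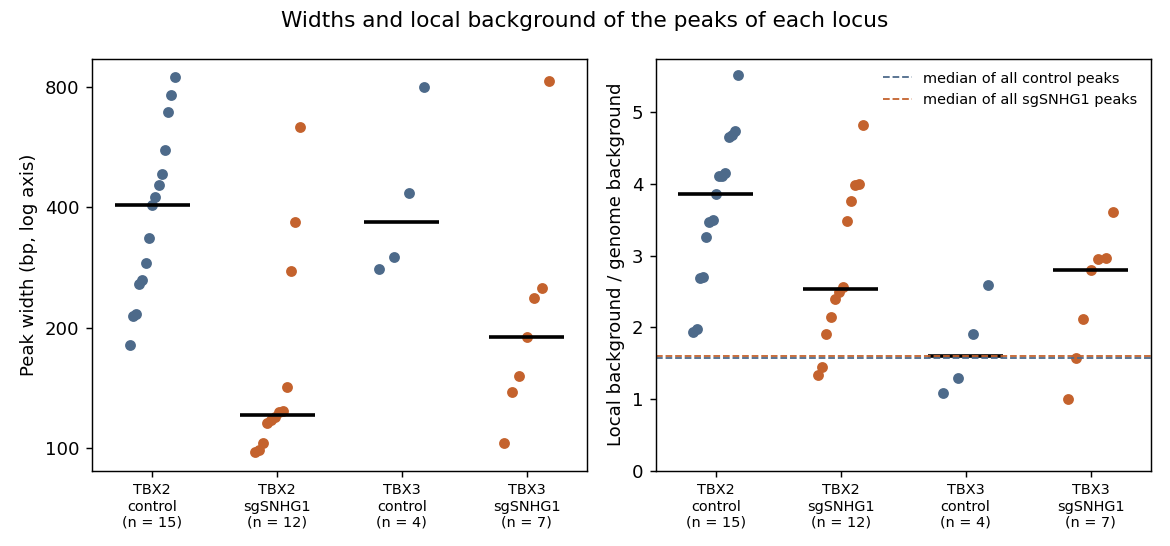
Width in bp (left, log axis) and local background over genome background (right) of each peak at TBX2 and TBX3, with the median as a black line and the medians of all peaks of each list as dashed lines. At TBX2 the control peaks have a median width of 405 bp and the sgSNHG1 peaks of 121.5 bp, and the median background is 3.86 and 2.53.

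Width differed more between the lists than height at TBX2. All 7 pairs were narrower in sgSNHG1, against 79.8% of all pairs, with a median log2 ratio of width of -1.01 beside -0.42 over all pairs. Site 5 was narrowed least, from 763 to 634 bp. The peaks of TBX2 covered 6390 bp in control and 2322 bp in sgSNHG1, a ratio of 0.363 beside 0.670 over the whole lists. Among loci counted in the same way, HAND2 (15 and 5 peaks) had a ratio of 0.275, ISL1 (8 and 6 peaks) 0.760, GATA3 (6 and 9 peaks) 1.067 and MYCN (36 and 49 peaks) 1.021. These 4 genes are further CRC members. MYCN is amplified in these cells, and the median scaled background of its peaks was 166 in control and 151 in sgSNHG1. At TBX2 it was 3.86 and 2.53. The part of the amplification in the MYCN ratio was not tested. Covered length moves with how many peaks were called, and the median fold enrichment of the TBX2 peaks was 3.91 over 15 control and 3.96 over 12 sgSNHG1 peaks. The shorter narrowest peak of the whole sgSNHG1 list moves in the same direction as these widths, and its part was not tested.

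Of the 15 control peaks at TBX2, 7 (46.7%, 95% exact Clopper-Pearson interval 21.3 to 73.4) met an sgSNHG1 peak, beside 66.7% of all control peaks. The interval covers counting error only. Of the 13 distal control peaks 7 met none, 53.8% beside 39.6% of all control distal peaks. Of the 12 sgSNHG1 peaks 8 (66.7%, 34.9 to 90.1) met a control peak, beside 78.2% of all sgSNHG1 peaks. Of the 10 distal ones 4 met none, beside 27.8% of all sgSNHG1 distal peaks. Both intervals hold the share of all peaks. The shares over all distal peaks leave out any peak within 3 kb of a protein-coding gene start. The TBX2 ones leave out only peaks within 3 kb of a TBX2 start. Control sites 7, 13 and 15 and sgSNHG1 site 15 lie near BCAS3 or TBX4 starts and would be promoter peaks by the first rule. TBX2 had fewer sgSNHG1 than control peaks within 100 kb, as did 48.8% of the 19390 protein-coding genes with a peak in that range.

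Several peaks of a single list lay close to a peak of the other. The highest control-only peak, site 3 (chr17:61314545-61314880, fold enrichment 4.86, pileup 25), ended 19 bp from the highest sgSNHG1-only peak, site 4 (chr17:61314899-61315016, 3.97, pileup 16). Both lie in an intron of BCAS3. Behind TBX4, the sgSNHG1-only site 18 lay 247 bp from control-only site 17 and 176 bp from control-only site 19. With a gap of up to 500 bp counted as shared, a rule chosen after the data were seen, 66.7% of the control and 83.3% of the sgSNHG1 peaks at TBX2 had a counterpart. The control-only sites 6 and 8 upstream of the gene and 13 and 14 in introns of TBX4 had fold enrichments from 3.28 to 4.36, and the nearest sgSNHG1 peak was 2608 to 9334 bp away. The sgSNHG1-only sites 1 and 2 in BCAS3 had 3.95 and 3.73, each from a pileup of 12.

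TBX3 had 4 control and 7 sgSNHG1 peaks, and its promoter peak was called in both lists. TBX3 (ENSG00000135111.16; chr12:114670255-114684175, minus strand) also has 4 transcripts with 4 starts. Its promoter peak, site 5, had a fold enrichment of 9.22 in control (chr12:114684102-114684902, pileup 61) and of 7.89 in sgSNHG1 (chr12:114684088-114684916, pileup 47). The log2 ratio was -0.22 with a counting error of 0.27, and the scaled pileup gave -0.02. It spanned 801 bp in control against 829 bp in sgSNHG1, the one pair of the 4 that was not narrower. The summit lay at -305 bp in control and -370 bp for sgSNHG1, in an intron of the antisense gene TBX3-AS1, of which a start also lies within 3 kb. In both lists the TBX3 promoter peak was higher than the TBX2 one.

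**Figure D3:**
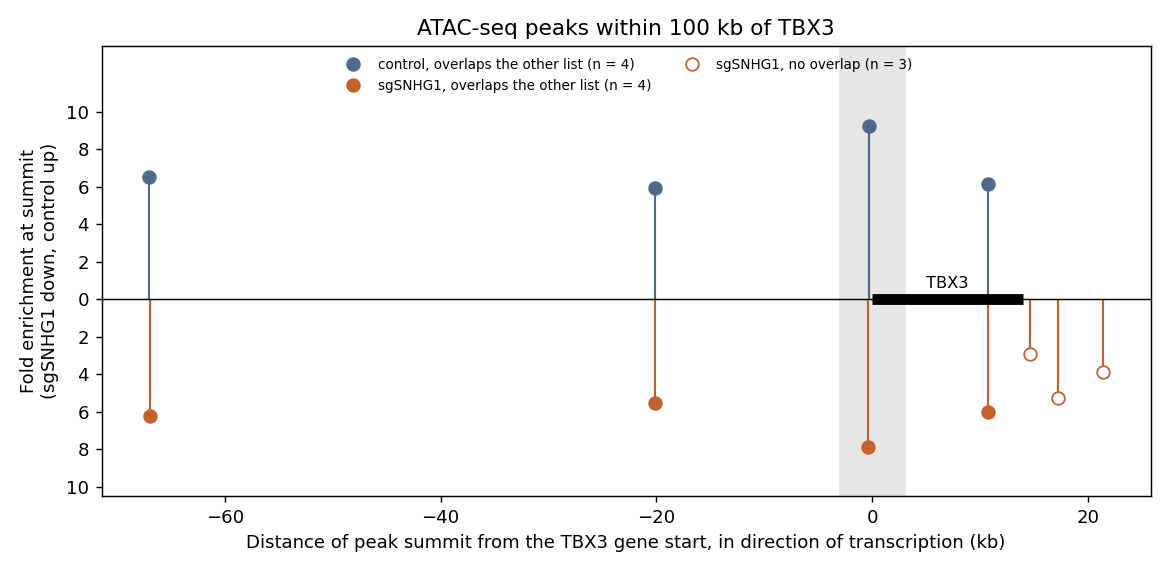
Peaks within 100 kb of TBX3, drawn as for TBX2, with distances in the direction of transcription (kb) and fold enrichment (control up, sgSNHG1 down). The 4 control points each have an sgSNHG1 counterpart of similar height, and the 3 open sgSNHG1 points lie just behind the end of the gene.

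The 3 distal TBX3 pairs were near equal in height. Site 7, in an intron of TBX3-AS1 with a control summit at -66984 bp, reached 6.49 in control and 6.23 in sgSNHG1, and its log2 ratio was -0.06 (counting error 0.41). Site 4, in a TBX3 intron, reached 6.16 and 6.02, and its log2 ratio was -0.03 (0.35). Site 6, in TBX3-AS1, reached 5.91 and 5.52, and its log2 ratio was -0.10 (0.48). The promoter pair had the lowest ratio, and no TBX3 pair had a positive one.

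All 4 TBX3 pairs were lower in fold enrichment, against 55.6% of all pairs, with a median log2 ratio of -0.08 beside -0.05. Of the 4, 0 passed 0.5 in size. Over all pairs 9.06% were at -0.5 or lower and 5.37% at 0.5 or higher. On the scaled pileup the median was 0.11, of the opposite sign, and 2 of 4 were lower, against 50.9% of all pairs. The scaled local background was higher in sgSNHG1 at 3 of 4 pairs, against 41.6% of all pairs and 67.5% of the 114 pairs within 5 Mb of TBX3. Its median log2 ratio was 0.23, beside 0.06 within 5 Mb, and 3 of 4 is near the share of the surrounding region. Over all member peaks of TBX3 the median scaled background was 1.60 in control and 2.80 in sgSNHG1, against 1.44 and 1.57 within 5 Mb. The medians of 1.60 and 2.80 are over different sets of peaks. At site 4 the scaled pileup gave 0.49 while fold enrichment gave -0.03. The direction at TBX3 thus depends on whether the local background is divided out, and no pair exceeded 2 counting errors on either scale.

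**Figure D4:**
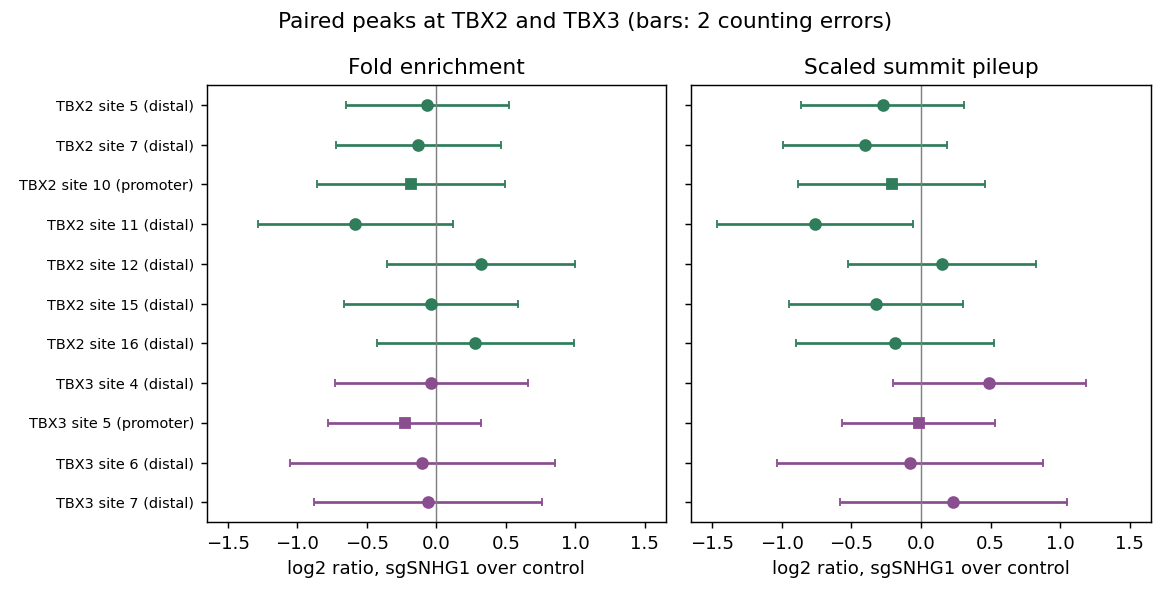
Log2 ratios, sgSNHG1 relative to control, of fold enrichment (left) and of scaled summit pileup (right) for the 7 TBX2 and 4 TBX3 pairs, with bars of 2 counting errors from the fragments at the summit. Squares are promoter pairs and circles distal pairs, and the one bar that clears 0 is that of TBX2 site 11 on the scaled pileup (-0.76). The sgSNHG1 summit of that pair lies outside its control peak.

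The 3 further sgSNHG1 peaks at TBX3 lay together behind the 3′ end of the gene, within 6962 bp. Site 2 (chr12:114666927-114667163) was the strongest, with a fold enrichment of 5.24, a pileup of 31 and a -log10 q of 11.8. Site 1 (chr12:114662681-114662818) had 3.89 and a pileup of 17, and site 3 (chr12:114669540-114669642) had 2.92 and a pileup of 20. The nearest control peak was 10424, 6079 and 3600 bp away. All 3 are intergenic in the annotation used. The scaled local background under them was 2.11, 2.97 and 3.60 for sites 1, 2 and 3, against 1.59 at all sgSNHG1 peaks, and its part in these calls was not tested. A -log10 q as high as that of site 2 was reached by 4.62% of the 5695 sgSNHG1-only distal peaks. Site 2 was picked as the strongest single-list peak of both loci, so this share is a rank and no probability. With the local background in proportion to the genome background, a control summit of 17 fragments or fewer at site 2 would have gone uncalled, a log2 ratio of control over sgSNHG1 of -1.23 or lower on the scaled pileup. For site 3 this limit was -0.36, and over all 15 peaks of a single list at TBX2 and TBX3 the limits ran from -1.23 to -0.36. A region open over fewer bases than the narrowest peak also goes uncalled, so the limits are no measurement of the control signal.

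Of the 7 sgSNHG1 peaks at TBX3, 4 (57.1%, 18.4 to 90.1) met a control peak, beside 78.2% of all sgSNHG1 peaks, and 3 of 6 distal ones did not, beside the 27.8% of all sgSNHG1 distal peaks. The 4 control peaks were all met (100%, 39.8 to 100), beside 66.7% of all control peaks, a share that the interval holds. TBX3 had more sgSNHG1 than control peaks within 100 kb, as did 27.9% of protein-coding genes with a peak in that range. The TBX3 peaks covered 1816 bp in control against 1900 bp in sgSNHG1, a ratio of 1.046. Their median fold enrichment was 6.33 over 4 control and 5.52 over 7 sgSNHG1 peaks. The bases covered in both lists, as a share of those covered in either, came to 0.600 at TBX3 against 0.250 at TBX2.

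TBX2 and TBX3 together had 3 promoter peaks in each list and 16 distal peaks in each list. Among distal peaks, 7 of 16 control and 7 of 16 sgSNHG1 peaks met no peak of the other list. All 7 control ones were at TBX2, while the sgSNHG1 ones were split between 4 at TBX2 and 3 at TBX3. With peaks of a -log10 q of at least 5 only, TBX2 kept 15 of 15 control and 7 of 12 sgSNHG1 peaks, beside 80.6% of all control and 76.7% of all sgSNHG1 peaks. Each of those 7 met a control peak, beside 83.6% of all sgSNHG1 peaks at this limit. At TBX3 it kept 4 of 4 and 5 of 7. The genome background was 1.72 fragments in sgSNHG1 and 2.20 in control, so an equal scaled signal gives a lower -log10 q in sgSNHG1. Its part in these counts and in the numbers of peaks called was not tested.

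Other genes start near the members. Of 8 genes that start within 100 kb of TBX2, 6 had a promoter peak in both lists. Their highest promoter peaks are only 4 sites, TBX2 sites 7, 10, 11 and 15, since site 10 is that of TBX2-AS1, ENSG00000267131 and ENSG00000289926 alike. All 4 are pairs given above. Of 7 near TBX3, 1, TBX3-AS1, had one, which is TBX3 site 5. TBX5, downstream of TBX3 and outside the 100 kb, had no promoter peak in either list.

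Within the T-box family outside TBX2 and TBX3, a promoter peak was found in both lists for 7 of 15 genes and in neither for 8, beside 69.7% of all protein-coding genes with one in control and 65.6% in sgSNHG1. The genes with one were TBX4, TBX6, TBX18, TBX20, TBX21, TBR1 and MGA, and those without were TBX1, TBX5, TBX10, TBX15, TBX19, TBX22, TBXT and EOMES. Fold enrichment was lower in sgSNHG1 for 6 of the 7, against 59.9% of all promoter pairs, with a median log2 ratio of -0.31 beside -0.07. The family values compare the highest promoter peak of each gene, while the others are over every promoter pair. By the family measure 7 of 8 adrenergic markers were lower (median -0.33). So were 3 of 6 mesenchymal (median 0.04) and 0 of 2 epithelial ones (median 0.28). The TBX4 peak among the 7 T-box genes is TBX2 site 15, which lies inside the gene near an internal transcript start. No peak of either list lay within 3 kb of the TBX4 gene start at chr17:61452404. TBX6, a regulator of paraxial mesoderm, went from 6.56 to 4.18, and its log2 ratio was -0.65 (counting error 0.37). MGA, which joins a T-box domain to a MAX-binding domain, went from 6.51 to 8.10, and its log2 ratio was 0.32 (0.39). TBX2 had the lowest control promoter peak of the 9 T-box genes with one and TBX3 the highest, and the TBX2 and TBX3 ratios of -0.18 and -0.22 lay within the range of the family.

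**Figure D5:**
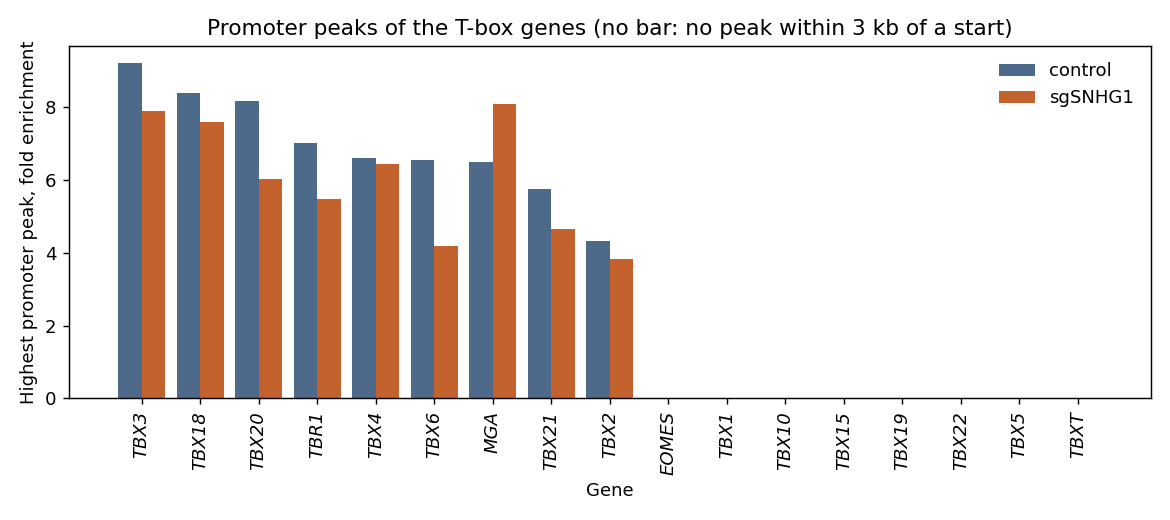
Highest promoter peak of each T-box gene (x axis, sorted by control) as fold enrichment (y axis) in control and sgSNHG1, 1 pooled list each and without error bars. TBX3 has the highest control bar (9.22) and TBX2 the lowest (4.33) among the 9 genes with a peak.

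Motifs were counted in the 201 bases around each of the 38 summits, on both strands. The T-box sequence AGGTGTGA was in 0 of 38 windows, beside 0.391% of all control and 0.342% of all sgSNHG1 windows. Its shorter form GGTGTGA was in 1, the control-only TBX2 site 6, beside 1.95% of all control windows. The E-box form CAGCTG, bound by basic helix-loop-helix factors, was in 6 of 15 control windows at TBX2 (40.0%, beside 19.0% of all control windows) and in 2 of 12 sgSNHG1 windows (16.7%, beside 20.8%). At TBX3 it was in 1 of 4 control and 3 of 7 sgSNHG1 windows. CATCTG, which is bound by other such factors, was in 5 of 15 and 4 of 12 windows at TBX2, beside 22.9% and 23.6% of all windows. Both are forms of the E-box CANNTG, which 66.9% of all control windows held.

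GATA letters (AGATAA or TGATAA) were in 3 of 15 control windows at TBX2, at sites 3, 5 and 19, and in 0 of 12 sgSNHG1 windows, beside 17.9% and 18.0% of all windows. At TBX3 they were in 1 of 4 control and 1 of 7 sgSNHG1 windows, both at site 6. At site 5 the sgSNHG1 summit lay 68 bp from the control summit, which takes the GATA letters out of the window although both peaks cover them. The homeodomain letters TAATTA were in no member window (4.21% of all control windows). AP-1 letters (TGAGTCA or TGACTCA) were in 1, at TBX3 site 1 (5.64% of all sgSNHG1 windows). The CTCF core was in both windows of TBX2 site 12, in the sgSNHG1 window of TBX2 site 4, at TBX3 site 1 and in the control window of TBX3 site 6, beside 10.6% of all control windows. The windows of a site overlap between the lists and are not independent. The median GC content at TBX2 was 57.2% in control and 55.0% in sgSNHG1 windows, and at TBX3 58.0% and 58.7%, beside 55.7% for all peaks of either list.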

How the data were processed

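ATAC-seq was run on 2 control and 2 sgSNHG1 samples. Per the submitters' processing notes and the methods, the authors trimmed reads with cutadapt, aligned them to GRCh38 with BWA, removed duplicates and unsuitable reads with Picard and GATK, shifted ends to the transposase cut with deepTools, combined the replicates of a group and called peaks with MACS2. Its version and threshold are not given in the sources used here. The deposited lists give each peak a position, the authors' score, a fold enrichment (a ratio to the local background), a -log10 p-value, a -log10 q-value and a summit. Combining replicates hides peaks that rest on 1 library and leaves no spread between replicates. The smallest -log10 q was 2.00 in control and 2.01 in sgSNHG1.

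Summit pileups and local backgrounds were solved from fold enrichment and -log10 p, to within 0.001 of the deposited -log10 p, for 47609 of 47610 control and 42682 of 42682 sgSNHG1 peaks, and the procedure was tested on simulated data. The genome background was the smallest local background, 2.20 fragments in control and 1.72 in sgSNHG1. Pileups at the member peaks ran from 12 to 61 fragments, which is the depth behind each value. Peaks overlapping by at least 1 bp were called shared, and mutual best overlaps were paired. Counting errors come from Poisson counting at the summit. Promoter and distal background shares are over peaks within 3 kb of a start of, or elsewhere within 100 kb of, any protein-coding gene (GENCODE version 44). Python 3.11.15, numpy 2.4.6, scipy 1.17.1, pandas 2.3.3 and pysam 0.24.0 were used.

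The peaks given in full are the highest promoter peak of each list, the 3 distal peaks highest in control, the pairs with the lowest and highest ratio and the highest peak without a partner in each list, per gene. Members, gene lists, motifs and rules were chosen with earlier results of these data known. Alternatives were stricter q limits, a 50% overlap, distal windows of 50 and 200 kb, a 1 kb promoter window, the scaled pileup and a 500 bp gap. Some items examined are not reported here.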

Additional observations from a re-analysis of the deposited data

How the results depend on the processing

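No paired analysis was possible because the replicates were combined before peaks were called, and for the same reason leaving out a replicate could not be run. Of 63 recomputed values, 53 stayed within 1.5 times the count or within the interval of the reported one and 10 moved. Those for the 1 kb promoter window are among the 53 and are no check. They count promoter and distal peaks together, so this window could not change them. Requiring 50% of each peak to overlap left 20% of control and 25% of sgSNHG1 peaks shared at TBX2 (46.7% and 66.7% as reported), while TBX3 kept 100% and 57.1%. A -log10 q of at least 5 left 7 sgSNHG1 peaks at TBX2, of which 100% were shared. A -log10 q of at least 10 left 6 control and 4 sgSNHG1 peaks at TBX2 and 4 sgSNHG1 peaks at TBX3. The 50 kb distal window left 7 control and 5 sgSNHG1 peaks at TBX2, with 100% of the latter shared. These settings keep fewer peaks by construction, or demand more overlap of peaks that differ in width. The median log2 ratio of fold enrichment ran from -0.15 to -0.05 at TBX2 and from -0.10 to -0.08 at TBX3 under the peak and window settings. The scaled pileup gave -0.28 at TBX2 and 0.11 at TBX3, where the sign turned. Both measures use the same summit counts and differ by the background term. Pileups of 12 to 61 fragments limit single ratios to counting errors of 0.27 to 0.48.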

Other observations

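Beyond the 100 kb windows, from 100 to 500 kb upstream of TBX3, there were 2 control and 4 sgSNHG1 peaks, of which 2 sgSNHG1 peaks met no control peak, both within 200 kb and the higher with a fold enrichment of 6.90. From 100 to 500 kb downstream, the side of TBX5, there were 0 control peaks and 1 sgSNHG1 peak (fold enrichment 4.17), which met no control peak. Over all sgSNHG1 distal peaks 27.8% met none. Around TBX2 the same range held 4 control and 2 sgSNHG1 peaks upstream and 4 and 5 downstream, with 3 control-only and 2 sgSNHG1-only peaks in all.

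Runs of 3 sgSNHG1-only peaks as close together as those behind TBX3, within 6.96 kb, occurred 15 times in the list and held 45 of the 9299 sgSNHG1-only peaks (0.484%). This run was singled out after its values were seen, and each group is a single pool.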
